A study of Helianthus annuus with 9 samples.

Results

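The miR164 family was followed through seed development in L-1-OL-1, a line of sunflower (Helianthus annuus) that the labels call a high oleic acid line. Its members were taken by name, as every mature or hairpin entry of the small RNA table whose name begins with miR164, and 7 of 8473 small RNA entries met this rule. They stand under 4 names, miR164a_2, miR164a_4, miR164b and miR164c_1, of which the last 3 have both a mature and a hairpin entry. The 9 libraries came from seeds of field-grown plants at 7, 22 and 37 days, 3 libraries a day, with no treatment or second line among them. The labels do not say from which event the days were counted. They also do not say whether the libraries of a day are from different plants, so the p-values measure only the spread between these libraries, and that spread may be technical.

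In flowering plants miR164 is one of the conserved miRNA families. It pairs with the mRNAs of a group of NAC transcription factors and directs their cleavage. In Arabidopsis these targets include the cup-shaped cotyledon genes CUC1 and CUC2, which set the boundaries between organs and separate the cotyledons of the embryo, NAC1, which acts in lateral root formation, and ORE1, which promotes leaf senescence. The mRNAs of these targets were not measured in the small RNA libraries.

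The names behind each entry say which known miRNAs it stands for. The entry miR164a_4 lists 82 names under 29 species prefixes, among them miR164a of Arabidopsis, rice, poplar, grapevine and soybean, and so is the widely shared form. The entry miR164c_1 lists 2 names, miR164c of rice and miR164 of Cynara cardunculus, the artichoke and cardoon species, which belongs to the daisy family as sunflower does. The entry miR164b lists 3 soybean names, and miR164a_2 lists 2 names under the prefix of tall fescue. The members' mature sequences are close to identical in plants, and how the authors assigned reads that fit several entries is not stated, so the family sum is the main measure. Single entries come after it.

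The counts of a library summed to 31011803 to 34397084 reads over all rows, with the exon, intron and intergenic totals included. Of these, 2208822 to 4050364 stood in small RNA entries and 297698 to 728740 in entries of known miRNAs. The miR164 entries took 2286 to 31487 reads in a library. Levels below are CPM, the usual scaled read count, with the sum of small RNA entries as library size and TMM factors, which lay between 1.34 and 1.41 at day 7, 0.965 and 1.05 at day 22 and 0.693 and 0.743 at day 37. Changes are given as the log2 ratio, later day over earlier day, with the standard error (SE) of the fit. Adjusted p-values come from edgeR's quasi-likelihood test with Benjamini-Hochberg adjustment over all rows tested, and a change was called at an adjusted p under 0.05. Over the 7294 entries tested, the median log2 change was -0.01 for day 22 against day 7, -0.15 for day 37 against day 22 and -0.57 for day 37 against day 7.

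The miR164 family was highest at day 22 and lowest at day 37. Its sum was 3304, 2988 and 3115 CPM in the 3 libraries of day 7. At day 22 it was 6651, 7017 and 8152 CPM. At day 37 it was 880 CPM in replicate 1, 872 CPM in replicate 2 and 1105 CPM in replicate 3. The libraries of the 3 days did not overlap, and each day stood apart from its neighbour in the order of levels by more than its spread. The means were 3136 ± 159, 7274 ± 782 and 952 ± 133 CPM (SD, n = 3).

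**Figure D1:**
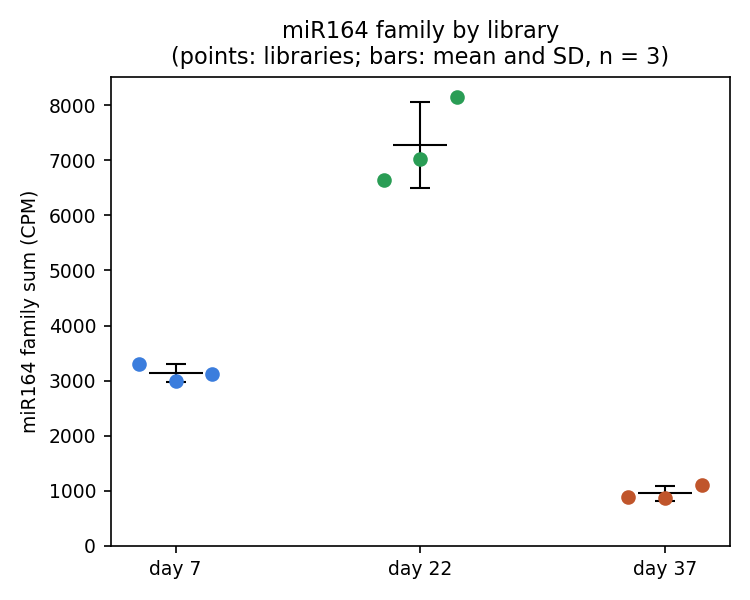
miR164 family sum in CPM (vertical axis, from 0) in each library of day 7, day 22 and day 37, with the mean and SD of 3 libraries. The day 22 libraries lie between 6651 and 8152 CPM, above all day 7 libraries, and the day 37 libraries lie at or below 1105 CPM.

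From day 7 to day 22 the family rose 2.32-fold (log2 1.21, SE 0.12, adjusted p = 5.43e-05), with all 3 libraries of day 22 above all 3 of day 7. From day 22 to day 37 it fell 7.64-fold (log2 -2.93, SE 0.13, adjusted p = 7.99e-07). Day 37 was thereby 3.29-fold below day 7 (log2 -1.72, SE 0.13, adjusted p = 3.96e-06). The size of these changes moved with the scaling while their direction and call did not: scaled to known miRNA reads, the rise was 1.49-fold and the fall 5.08-fold, and with library totals alone day 37 was 6.22-fold below day 7.

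Within the pool of known miRNAs, a share that uses no TMM factor, miR164 held 2.55% ± 0.242 (SD, n = 3) of the reads at day 7. It held 3.80% ± 0.450 at day 22 and 0.748% ± 0.0361 at day 37. The highest library of day 37 stood at 0.770% and the lowest of day 7 at 2.28%. Each of the 3 contrasts had a p of 0.1 in a two-sided exact permutation test, the lowest value that 3 against 3 libraries can give (0.12 after Benjamini-Hochberg adjustment over the 24 permutation tests made).

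The mature entry of miR164c_1, the form listed under rice and artichoke names, held most family reads at day 7. It had 7653, 7464 and 7783 reads at day 7, then 13078, 12976 and 18586 at day 22, and 1219, 1460 and 1447 at day 37. In CPM its mean went from 2459 ± 127 to 4196 ± 553 and then to 488 ± 20.4 (SD, n = 3), with no overlap between days. The rise to day 22 was 1.71-fold (log2 0.77, SE 0.11, adjusted p = 0.000282) and the fall to day 37 was 8.60-fold (log2 -3.10, SE 0.11, adjusted p = 3.78e-07). Day 37 was 5.04-fold below day 7 (adjusted p = 3.32e-07). The first of these calls was lost when libraries were scaled to known miRNA reads, where the log2 change was 0.14 (adjusted p = 0.393). With library totals alone that change was 0.33 (adjusted p = 0.0457).

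The mature entry of miR164a_4, the widely shared form, had a much steeper rise. It had 1675, 1648 and 1722 reads at day 7, then 9335, 8709 and 11775 at day 22, and 966, 998 and 1525 at day 37. Its mean went from 542 ± 25.3 to 2809 ± 208 and back to 414 ± 109 CPM (SD, n = 3). The rise was 5.19-fold (log2 2.37, SE 0.18, adjusted p = 1.14e-05) and the fall 6.79-fold (log2 -2.76, SE 0.18, adjusted p = 5.54e-06). Day 37 and day 7 overlapped, since day 37 replicate 3 at 537 CPM lay above day 7 replicate 2 at 517 CPM, and their difference did not pass (log2 -0.39, SE 0.17, adjusted p = 0.0644). Without day 37 replicate 3 it did (log2 -0.62, adjusted p = 0.00115). It also passed with RLE size factors, library totals, known miRNA totals, all reads as library size and DESeq2, at log2 changes of -1.30 to -0.45. Other settings made the difference smaller, without a call. It was -0.12 with the upper quartile (adjusted p = 0.534) and -0.11 with the deposited values headed TPM (adjusted p = 0.566). Without day 37 replicate 2 it was -0.25 (adjusted p = 0.184).

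The mature entry of miR164b was rare. It had 23, 21 and 27 reads at day 7, 131, 146 and 174 at day 22 and 9, 16 and 30 at day 37. It rose 5.58-fold to day 22 (log2 2.48, SE 0.32, adjusted p = 0.000184) and fell 6.54-fold to day 37 (log2 -2.71, SE 0.33, adjusted p = 0.000173). Days 37 and 7 overlapped at a log2 change of -0.23 (adjusted p = 0.574), which became 0.030 with the upper quartile and, with a call, -1.14 with library totals alone (adjusted p = 0.0208). Without day 37 replicate 1 it was 0.054, and without day 37 replicate 3 it was -0.78, also with a call (adjusted p = 0.0242).

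The hairpin entries hold reads that the table lists under the precursor hairpins of known miRNAs rather than under their mature forms. The miR164c_1 hairpin had 184, 181 and 188 reads at day 7, 303, 315 and 388 at day 22 and 47, 71 and 58 at day 37. The miR164b hairpin had 120, 111 and 129, then 201, 234 and 282, then 17, 37 and 36 reads. The miR164a_4 hairpin had 97, 102 and 75, then 202, 183 and 258, then 27, 39 and 34 reads. In CPM all of these followed the order of the family sum, day 22 over day 7 over day 37, with no overlap between days. Their rises to day 22 were 1.60-fold for miR164c_1, 1.75-fold for miR164b and 2.05-fold for miR164a_4 (adjusted p = 0.000727, 0.00631 and 0.000379). Their falls to day 37 were 4.57-fold, 6.38-fold and 5.11-fold (adjusted p = 2.26e-06, 2.31e-05 and 8.38e-06). With library totals alone the rises of the miR164b and miR164c_1 hairpins did not pass (log2 0.36 and 0.23, adjusted p = 0.166 and 0.14), nor did they with known miRNA totals (0.17 and 0.04, adjusted p = 0.463 and 0.799), and that of the miR164b hairpin did not pass with RLE size factors (0.47, adjusted p = 0.0631).

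The last member, the miR164a_2 hairpin, was listed at 0 reads in all 3 libraries of day 7, which allows up to 3 reads a library by counting error alone. It had 0, 0 and 24 reads at day 22 and 1, 0 and 7 at day 37, so replicate 3 held nearly all of them at both days. It did not pass the filter on low counts and was not tested.

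**Figure D2:**
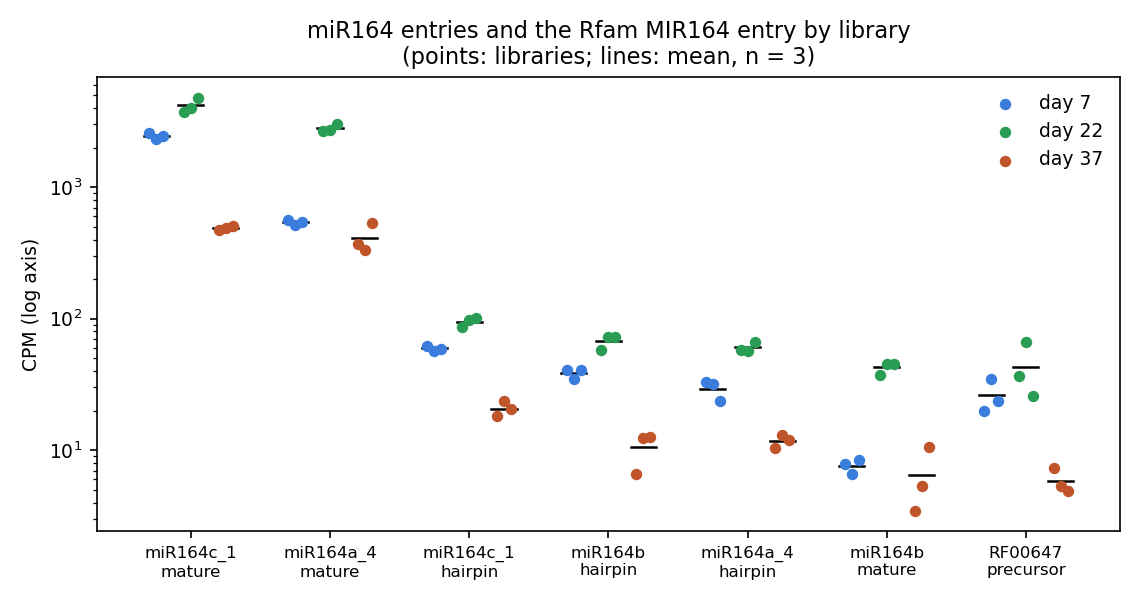
Level of each tested miR164 entry and of the Rfam MIR164 entry in CPM (vertical log axis) in each library, with points coloured by day and lines at the mean of 3 libraries. In the 6 miR164 entries the day 22 libraries lie highest. Day 37 lies below day 7 without overlap in 4 of them, while the mature miR164a_4 and miR164b entries overlap between those days.

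Of the 6 entries tested, 6 rose from day 7 to day 22, where 69.8% of all entries tested were called, 35.3% higher and 34.5% lower. In the next interval, to day 37, 6 of 6 fell, where 50.6% were called, 18.8% higher and 31.8% lower. Between days 7 and 37, 4 of 6 fell and 2 were not called, where 78.7% of all entries were called, 33.1% higher and 45.6% lower. The number called from day 7 to day 22 was 3 with libraries scaled to known miRNA reads, 4 with library totals alone and 5 with RLE size factors. From day 7 to day 37 all 6 were called lower without day 37 replicate 3 and also with library totals alone. In that contrast 5 were called with RLE size factors, known miRNA totals, all reads as library size and DESeq2. Among 189 other known miRNA entries tested, 82 were called higher and 21 lower in the first of these contrasts, 32 higher and 46 lower in the second, and 76 higher and 41 lower in the last.

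The make-up of the family changed between day 7 and day 22. At day 7 the miR164c_1 mature entry held 78.4% ± 0.0658 of the family's reads and the miR164a_4 mature entry 17.3% ± 0.0902 (SD, n = 3). At day 22 they held 57.6% ± 1.39 and 38.7% ± 1.38. At day 37 they held 51.7% ± 4.99 and 43.0% ± 5.31. The miR164b mature entry went from 0.243% ± 0.0265 over 0.588% ± 0.0517 to 0.653% ± 0.284, and the hairpin entries together from 4.07% ± 0.101 over 3.10% ± 0.124 to 4.65% ± 0.846.

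Within a library, the reads of the miR164c_1 mature entry divided by those of the miR164a_4 mature entry came to 4.57, 4.53 and 4.52 at day 7. The ratio was 1.40, 1.49 and 1.58 at day 22. At day 37 it was 1.26, 1.46 and 0.949, so that miR164a_4 was the more abundant of the pair in day 37 replicate 3 alone among the 9 libraries. The ratio was 3.05-fold lower at day 22 than at day 7 and 3.77-fold lower at day 37 than at day 7, with no overlap (exact permutation test, two-sided, p = 0.1 for both, the lowest possible, adjusted 0.12). Days 22 and 37 overlapped (exact permutation p = 0.2, adjusted 0.229).

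**Figure D3:**
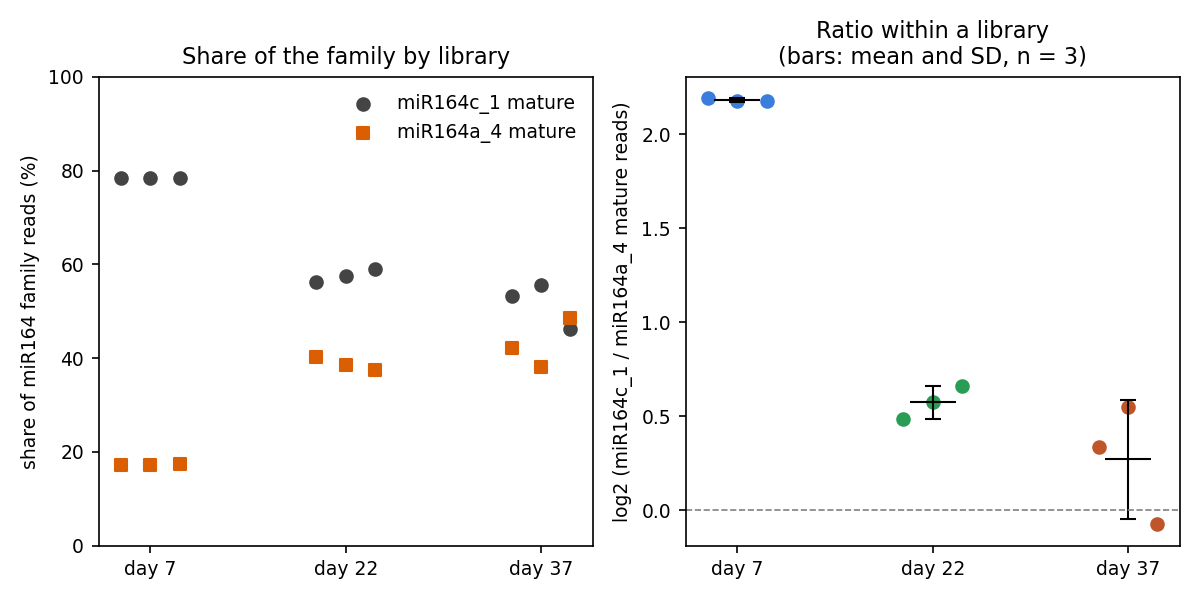
Left, share of miR164 family reads (vertical axis, %) held by the mature miR164c_1 and miR164a_4 entries in each library. Right, the log2 ratio of their reads with the mean and SD of 3 libraries and a dashed line at equal reads. The shares move from about 78.4% and 17.3% at day 7 to 57.6% and 38.7% at day 22, and at day 37 all 3 libraries have a lower miR164c_1 share than any day 22 library, with replicate 3 below the line of equal reads.

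The difference between entries was also tested in the fit of all libraries, as each known miRNA entry against its own family (edgeR, diffSpliceDGE, adjusted over the 191 entries of families with several entries). This test and the ratio above were chosen after the values were seen. From day 7 to day 22 the log2 change of the miR164a_4 mature entry lay 1.16 above that of its family (adjusted p = 0.00921) and that of the miR164b mature entry 1.27 above it (adjusted p = 0.00256). The other 4 entries did not pass there, and 9.42% of all entries so tested did. From day 22 to day 37 the miR164c_1 hairpin alone passed, at 0.74 above the family (adjusted p = 0.0394, beside 9.95% of all entries). That call lies near the threshold. In the simulated counts made for this contrast, 15% of the calls fell in families without a changed entry, beside 0% in the other contrasts. A single simulated set with 6 changed entries is too small to give the rate of false calls. From day 7 to day 37 the miR164a_4 and miR164b mature entries lay 1.33 and 1.49 above the family (adjusted p = 0.00111 and 0.00129), beside 14.1% of all entries.

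Hairpin reads set against the mature reads of the same name gave a further view of the change. For miR164a_4 there were 5.45 ± 0.965 (SD, n = 3) hairpin reads per 100 mature reads at day 7, then 2.15 ± 0.0461 at day 22 and 2.98 ± 0.854 at day 37. For miR164c_1 the same measure was 2.41 ± 0.0104, 2.28 ± 0.173 and 4.24 ± 0.543. In miR164b the hairpin outnumbered the mature entry throughout, at 509 ± 27.6, 159 ± 4.56 and 180 ± 56.2 reads per 100. These ratios are not per length, and a hairpin is several times longer than the mature form.

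Libraries of a day gave like read counts for the miR164 entries. In the 6 tested entries the highest library of a day held 1.04 to 3.33 times the reads of the lowest, with the largest factor in the miR164b mature entry at day 37. Of the 19 pairs of a miR164 entry and a day with at least 10 reads in a library, 1 had libraries 10-fold or more apart, the miR164a_2 hairpin at day 22. Among the other known miRNA entries 130 of 550 such pairs did. The pairs were not matched for read level, so these counts do not compare steadiness at like levels.

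A separate line of the table counts reads under RF00647, the Rfam model of the plant MIR164 precursor, which the name rule does not include. It had 59, 110 and 76 reads at day 7, 129, 215 and 100 at day 22 and 19, 16 and 14 at day 37. Days 7 and 22 overlapped and their difference did not pass (log2 0.72, SE 0.36, adjusted p = 0.102). Day 37 lay below both earlier days without overlap, 7.35-fold below day 22 (log2 -2.88, SE 0.42, adjusted p = 0.000513) and 4.47-fold below day 7 (adjusted p = 0.00155).

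The change of miR164 was compared with those of a pair of other families that target developmental transcription factors, miR396, which targets growth-regulating factors, and miR166, which targets HD-ZIP III factors. The reads of miR164 divided by those of miR396 were 0.0739 at day 7, 0.131 at day 22 and 0.248 at day 37 (geometric means, n = 3). The ratio was thus 1.77-fold higher at day 22 than at day 7 and a further 1.89-fold higher at day 37, with miR396 itself at a log2 change of -3.85 between days 22 and 37. Divided by miR166 the reads of miR164 gave 0.0883, 0.203 and 0.0330, which is 2.29-fold higher at day 22 and then 6.14-fold lower at day 37. Each of these differences had no overlap between libraries and p = 0.1 in the exact permutation test, the lowest possible (adjusted 0.12). With mature entries alone the miR166 ratio was 1.58-fold higher and then 9.12-fold lower. These mature ratios were 0.243, 0.383 and 0.0420, since many miR166 reads stood in hairpin entries, most of all at day 7.

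Of 15 families with transcription factor targets that were listed beside miR164, 13 stood in the table, and miR165 and miR828 were not analysed here. From day 7 to day 22 their median log2 change was 1.05, beside -0.01 over all entries tested. Over the 189 other known miRNA entries tested, which include entries of these families, it was 0.87. Of the 13 families, 10 rose and 3 did not pass. The largest changes were those of miR156 (3.61) and miR157 (1.74), which target SPL factors, and miR171 (1.94), which targets GRAS factors. The smallest were miR166 (0.01) and miR319 (0.07), which did not pass and turned negative with RLE size factors, library totals and known miRNA totals, and miR858 (0.33), which targets MYB factors and turned negative under the same 3 scalings. With library totals and with known miRNA totals miR159 and miR396 turned negative too. All these family changes are sums of mature and hairpin entries. With mature entries alone, miR164 changed by 1.23 and its log2 ratio to miR166 by 0.66. By these values the mature miR166 entries rose under TMM factors, which was not tested.

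From day 22 to day 37 the median of these families was 0.18, beside -0.15 over all entries and -0.07 over the other known miRNA entries. As sums of mature and hairpin entries, the families split into 5 that rose, 5 that fell and 3 that did not pass. Among these calls miR171 turned negative when scaled to library totals or to all reads, while miR166 and miR858 turned positive with known miRNA totals. The lowest were miR396 (-3.85), miR157 (-1.65) and miR172 (-1.59), a regulator of AP2-like factors. The highest were miR169 (1.09), which targets NF-YA subunits, miR167 (0.73), which targets auxin response factors, and miR170 (0.70), which shares GRAS targets with miR171. The change of miR164, -2.93, lay between those of miR396 and miR157. From day 7 to day 37 their median was 0.56, beside -0.57 over all entries and 0.66 over the other known miRNA entries. As sums of mature and hairpin entries, 7 of these families rose and 3 fell, and miR159, among the 7, turned negative with library totals. The highest were miR156 (4.26), miR169 (2.81) and miR171 (2.15), and the lowest were miR396 (-3.46), miR172 (-0.54) and miR319 (-0.34), the last without a call. The change of miR164, -1.72, lay between those of miR396 and miR172. The called falls of miR166 in both contrasts are those of its mature and hairpin reads together. With mature entries alone, miR164 changed by -2.96 from day 22 to day 37 and its log2 ratio to miR166 by -3.19. From day 7 to day 37 these changes were -1.73 and -2.53. By these values the mature miR166 entries were not lower at day 37 under TMM factors, which was not tested. The 3 contrasts share libraries, so their values are not independent.

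**Figure D4:**
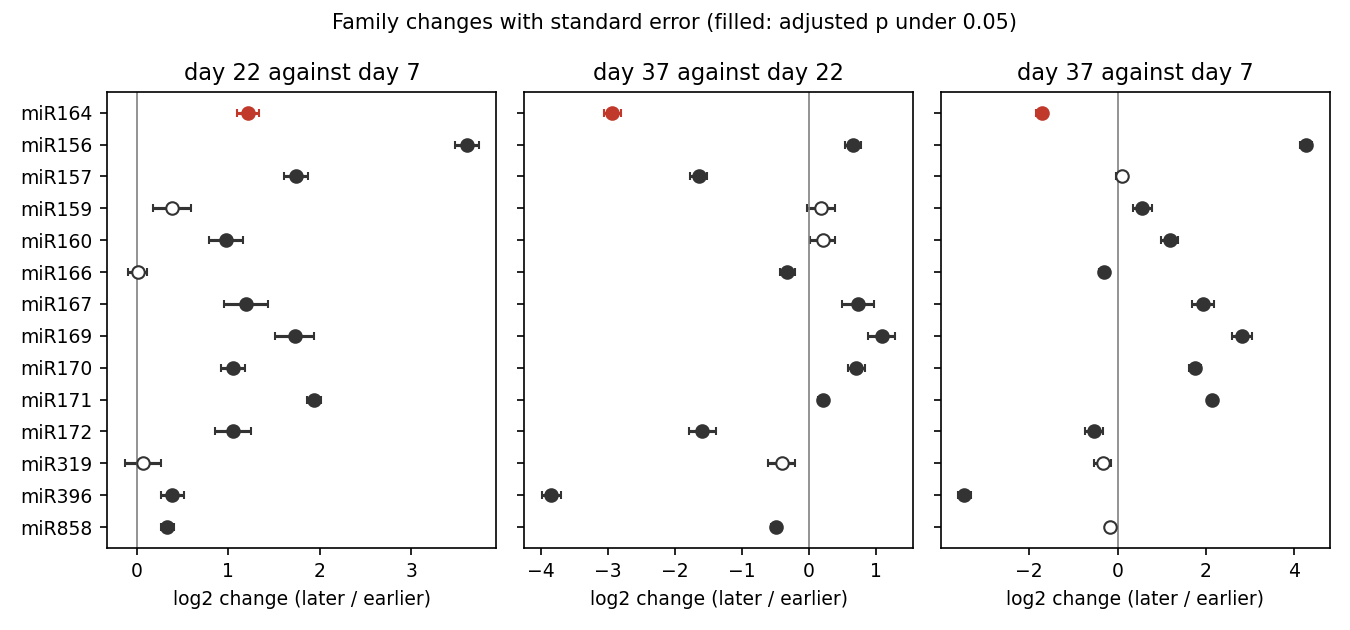
Log2 change of the miR164 family (red) and of 13 families with transcription factor targets (black) in each contrast, with bars for the standard error and filled points for an adjusted p under 0.05. miR164 lies at 1.21 from day 7 to day 22 and, at -2.93 and -1.72, above miR396 and below the other 12 families in the contrasts with day 37.

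The families whose level ran most like miR164 over the 9 libraries, by Pearson's correlation of log2 CPM among 28 families with a mean of at least 10 CPM, were miR399 (0.992), miR398 (0.969), miR403 (0.960), miR396 (0.938) and miR858 (0.926). The points share libraries, scaling and days, so these values are a description. miR399, known for its role in phosphate homeostasis, went from 56.0 ± 6.41 over 166 ± 48.0 to 10.4 ± 2.42 CPM (SD, n = 3). miR403, which targets AGO2, went from 346 ± 10.5 over 941 ± 37.1 to 204 ± 9.47 CPM. miR398, which targets copper/zinc superoxide dismutases, had a smaller range, from 494 ± 65.9 over 658 ± 17.7 to 337 ± 32.9 CPM, and its change to day 22 turned negative with library totals and with known miRNA totals.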

How the data were processed

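The authors deposited a table of read counts per small RNA entry for 9 sunflower seed libraries, with no normalization per the file headers. Beside each count stands a value headed TPM, which the authors deposited at or below the count and as 0.001 where the count is 0. It was taken as a score whose meaning is not stated and served only as an alternative. Bowtie2 is named in the submitters' processing notes, with no role; no source used here gives the genome build, the counter or how molecular identifiers entered the counts. The miR164 sequences and positions and the lists of predicted miRNAs and siRNAs were not analysed here.

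Of 8476 rows, 3 totals (exon, intron, intergenic) were left out. Counts were tested in edgeR 4.0.16 (R 4.3.3) with TMM factors, filterByExpr by day and its quasi-likelihood test, with all 9 libraries fitted together and each day given its own mean. The family sum, added as 1 row outside library sizes and factors, was adjusted with all rows, and other families, joined by miRNA number, were added one at a time. Shares and ratios were compared by exact permutation tests. The tests were checked on simulated data. Alternatives were other scalings and filters, DESeq2 1.42.0, limma 3.58.1 on log2 of the scaled TPM column (pseudocount 0.5), the replicate number as a block, fits of 6 libraries, mature entries alone, leaving out each library and, chosen after seeing the data, adding the Rfam entry to the sum. The ratio of miR164c_1 to miR164a_4 and the test of entries against their family were also chosen then.

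Named are every miR164 entry, the 5 families most correlated with miR164 and the 3 largest and 3 smallest changes per contrast among families with transcription factor targets. The members and lists were chosen with earlier results of these data known. Libraries of a day differed beyond sampling noise (chi-square per degree of freedom 10.2 to 76.5), so none was a copy of another and each counted as 1 replicate. This does not show that they came from different plants. At days 7 and 22 replicates 1 and 2 were closest (10.2 and 11.2), while each stood at 37.9 to 47.5 from replicate 3. At day 37 replicates 2 and 3 were closest (29.4).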

Additional observations from a re-analysis of the deposited data

How the results depend on the processing

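The family sum kept its direction and its call in all 3 contrasts under every alternative run. Leaving out 1 library gave log2 changes of 1.05 to 1.27 (day 22 against 7), -3.06 to -2.82 (day 37 against 22) and -1.84 to -1.66 (day 37 against 7), and the other settings 0.58 to 1.35, -3.41 to -2.35 and -2.64 to -1.38. The share of known miRNA reads and the ratios to miR396, to miR166 and between the mature miR164c_1 and miR164a_4 entries kept their direction under every alternative run for them, but 3 against 3 libraries cannot reach a p under 0.1. The replicate numbers were not taken to pair the libraries, since the correlations of same-numbered libraries ran from -0.03 to 0.11 and 1 of 9 was over 0.1. As a hint from the data, libraries correlated best with their own number in 12 of 18 cases, where unrelated numbers would give 6. With the replicate number as a block the family changes were 1.21, -2.94 and -1.73, and the entries called from day 7 to day 37 were 5 in place of 4, the miR164a_4 mature entry being added (log2 -0.42, adjusted p = 0.0398). The number of entries called from day 7 to day 22 was 3 with known miRNA totals, 4 with library totals alone and 5 with RLE size factors. The miR164b mature entry, not called from day 7 to day 37, changed sign with the upper quartile (0.030) and without day 37 replicate 1 (0.054), and leaving out single libraries gave -0.78 to 0.054. Under RLE size factors, library totals and known miRNA totals the median log2 change of all entries from day 7 to day 22 was -0.36, -0.46 and -0.64. Depth limits the miR164a_2 hairpin and the miR164b mature entry, at 0 to 30 reads in the libraries of days 7 and 37.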
